A study of Mus musculus with 2 samples.

Results

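Ifitm1, Ifitm2, Ifitm3, Ifitm6 and Bst2 encode antiviral restriction factors, and their levels were followed through the cells of a mouse glioma in 2 single-cell libraries. The 5 genes were taken by symbol from the 31053 genes counted, and every barcode with at least 1000 UMIs (unique molecular identifiers, which stand for single captured RNA molecules) and at most 17% mitochondrial UMIs was kept as a cell. GL261 is a mouse glioma cell line, and 100000 of its cells had been placed in the brain of male C57BL/6 mice aged 8 to 12 weeks. At day 10 the CD45.2+ cells of the tumor-bearing hemisphere, a leukocyte gate, were sorted and sequenced. The WT library came from wild-type mice. The CD169-DTR library came from mice that carry the human diphtheria toxin receptor (HBEGF) in 1 copy of Siglec1, the gene for the macrophage lectin CD169, and keep 1 intact copy. Both groups received diphtheria toxin at 40 ng per g, 1 day before and 4 days after the tumor cells, so toxin exposure was shared and loss of receptor-bearing cells was the intended difference. The comparison asks how the restriction factors were distributed over the cell classes in WT and after toxin directed at CD169+ cells. Each group was 1 library pooled from 3 mice.

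The proteins act at membranes. IFITM proteins are small membrane proteins that stop enveloped viruses from fusing, IFITM3 chiefly in endosomes and IFITM1 chiefly at the cell surface. BST2, also called tetherin, ties budding virus particles to the cell that made them, and in mice its surface form PDCA-1 is used to recognise plasmacytoid dendritic cells (pDC). Type I interferons bind IFNAR and IFN-γ binds IFNGR, and JAK kinases at these receptors start the signal to the nucleus. Type I interferons act on genes chiefly through the interferon-stimulated response element (ISRE), and IFN-γ through the gamma-activated site (GAS).

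The 4 Ifitm genes lie together on chromosome 7 (GRCm38 coordinates), Ifitm2 (ENSMUSG00000060591) at chr7:140954837-140955987 on the minus strand, Ifitm1 (ENSMUSG00000025491) at chr7:140967221-140969825 on the plus strand, Ifitm3 (ENSMUSG00000025492) at chr7:141009586-141010770 and Ifitm6 (ENSMUSG00000059108) at chr7:141015699-141017924, both on the minus strand. Bst2 (ENSMUSG00000046718) lies apart at chr8:71534255-71537456 on the minus strand. Promoter stretches of 250 bases before to 50 after each RefSeq start were searched on both strands for the ISRE core (GAAA, any 2 bases, GAAA) and the GAS core TTCNNNGAA, which reads the same on both strands. The stretches with the ISRE core are shown because the members differ in it, with the matches in capitals, 5′ to 3′ on the minus strand, from RefSeq on GRCm38.p6.
Ifitm2 chr7:140955988-140956017: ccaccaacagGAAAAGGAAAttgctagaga
Ifitm3 chr7:141010716-141010742: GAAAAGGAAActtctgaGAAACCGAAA
Bst2 chr8:71537580-71537609: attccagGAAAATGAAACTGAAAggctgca
Ifitm3 and Bst2 held 2 matches each, those of Bst2 overlapping, and Ifitm2 held 1. The promoters of Ifitm1 and Ifitm6 held 0. Over 32851 mouse promoters of the same length 3.44% held the ISRE core and 8.30% the GAS core, and the GAS core was found in Ifitm3, Ifitm6 and Bst2. A match describes letters in the window and does not show binding.

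The WT library held 10107 cells with a median of 7776 UMIs and the CD169-DTR library 7604 cells with a median of 8099.5 UMIs. They shared 21 cell barcodes, and 11.3 would be shared by chance from the barcode whitelist. Cells were clustered and named from marker genes, with the 5 members left out of the clustering genes, and 11 classes had at least 20 cells in each library. Microglia numbered 4007 in WT and 4614 in CD169-DTR, or 39.6% and 60.7% of cells. Another 840 and 870 cells lay in clusters left unnamed. They include cluster 2 (716 and 749 cells), which had 8 of 10 microglial markers. The counts and levels given for microglia as a class leave it out. Macrophages numbered 2258 and 728, or 22.3% and 9.57%. The other classes were type 2 conventional dendritic cells (cDC2, 860 and 205), T cells (478 and 218), endothelial cells (403 and 278), NK cells (330 and 86), cDC1 (194 and 32), granulocytes (170 and 194), choroid plexus cells (155 and 173), B cells (76 and 124) and mural cells (54 and 34). Endothelial, choroid plexus and mural cells are not leukocytes, although the sort was for CD45.2. In macrophages Siglec1 was at 38.0 CPM in WT and 12.2 CPM in CD169-DTR, a log2 ratio of 1.64 (1.36 to 1.94), and whether RNA of the altered copy is counted is not given in the sources used here. CPM is the member's UMIs per 1000000 UMIs of the class. With 1 library per group no difference was tested, and the 95% intervals given throughout cover counting error only, not differences between mice or preparations.

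Ifitm3 was highest in dendritic cells, macrophages, granulocytes and the cells of blood vessels. Its level in WT was 6706 CPM in cDC2, 5464 CPM (5430 to 5498) in macrophages, 4910 CPM in granulocytes, 4790 CPM in endothelial cells, 4700 CPM in mural cells and 4086 CPM in cDC1. Microglia stood lower at 1536 CPM (1523 to 1548), B cells at 1462 CPM, T cells at 719.5 CPM, NK cells at 579.5 CPM and choroid plexus cells at 307 CPM. The intervals of granulocytes and endothelial cells overlapped, as did those of endothelial and mural cells and of microglia and B cells. In CD169-DTR cDC2 also led at 4299 CPM, followed by endothelial cells at 4023 CPM, and macrophages were at 3068 CPM (3033 to 3103). After each cell was thinned to 2000 UMIs, 97.8% of WT macrophages and 91.3% of CD169-DTR macrophages had an Ifitm3 UMI. The share was 68.6% and 54.5% of microglia, and the unthinned shares of microglia were 84.2% and 71.9%.

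Bst2 was the most evenly spread member. Among the 11 classes its highest level was in microglia, at 1799 CPM in WT and 1240 CPM in CD169-DTR, and macrophages were close behind at 1655 and 1178 CPM. In WT the leading class was only 4.80-fold above the lowest, choroid plexus cells at 375 CPM, whereas the same ratio was 21.9 for Ifitm3, 36.1 for Ifitm2, 191 for Ifitm6 and 242 for Ifitm1. The intervals of cDC1 (1098 CPM) and T cells (1064 CPM) overlapped in WT, and so did the neighbours from endothelial cells (986 CPM) through B cells (910 CPM) and mural cells (770 CPM) to NK cells (746 CPM). pDC fell short of 20 cells in CD169-DTR and were kept out of the class comparison, yet their Bst2 level exceeded that of every compared class, at 4945 CPM (4819 to 5074) in 101 WT cells and 5522 CPM (5133 to 5932) in 11 CD169-DTR cells. Every thinned pDC had a Bst2 UMI, 100 of them in WT and 11 in CD169-DTR.

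Ifitm1 had the widest range between classes in WT, with high levels in a few of them. In WT it was at 1391 CPM in mural cells and 1286 CPM in cDC2, whose intervals overlapped, then 892 CPM in granulocytes and 563 CPM in cDC1. Macrophages were far lower at 85.0 CPM, and microglia were at 5.74 CPM. cDC2 held 62.6% of the Ifitm1 UMIs in the cells of the WT library. In CD169-DTR granulocytes led at 1874 CPM, mural cells stood at 1427 CPM and cDC2 at 539 CPM. Within cDC2 only a part of the cells had the transcript, 46.8% of thinned cells in WT and 33.3% in CD169-DTR, against 9.47% and 6.29% of macrophages. Basophils and mast cells, a class of 25 and 9 cells, showed 2283 and 4000 CPM.

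Ifitm2 and Ifitm6 shared granulocytes as the leading class in both libraries. Ifitm2 was at 2202 CPM in WT granulocytes, 1896 CPM in cDC2, 1104 CPM in cDC1 and 1096 CPM in macrophages, the last 2 with overlapping intervals. Endothelial cells, at 1025 CPM, and mural cells, at 849 CPM, also had it. Microglia were the lowest class at 61.1 CPM. Ifitm6 was at 537 CPM in WT granulocytes, 439 CPM in cDC2, 259 CPM in macrophages and 209 CPM in cDC1. It was low in the other classes, with 47.7 CPM in B cells, 25.4 CPM in T cells, 10.8 CPM in NK cells, 3.99 CPM in microglia and 2.81 CPM in mural cells. Granulocytes were uneven for Ifitm6. After thinning, 37.6% of WT granulocytes and 45.0% of WT cDC2 had an Ifitm6 UMI. Its level was 1778 CPM in the 18 WT granulocytes with 3 or more UMIs of immature granulocyte genes (Ngp, Camp, Ltf and Lcn2). In the other 147 it was 252 CPM. Some reads of Ifitm2 cannot be assigned with certainty, since 26.1% of the 91-base windows in the last 500 bases of its transcript were also found in the gene models Gm11951, Gm45717 and Gm8865. No such window was shared by the other members.

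**Figure D1:**
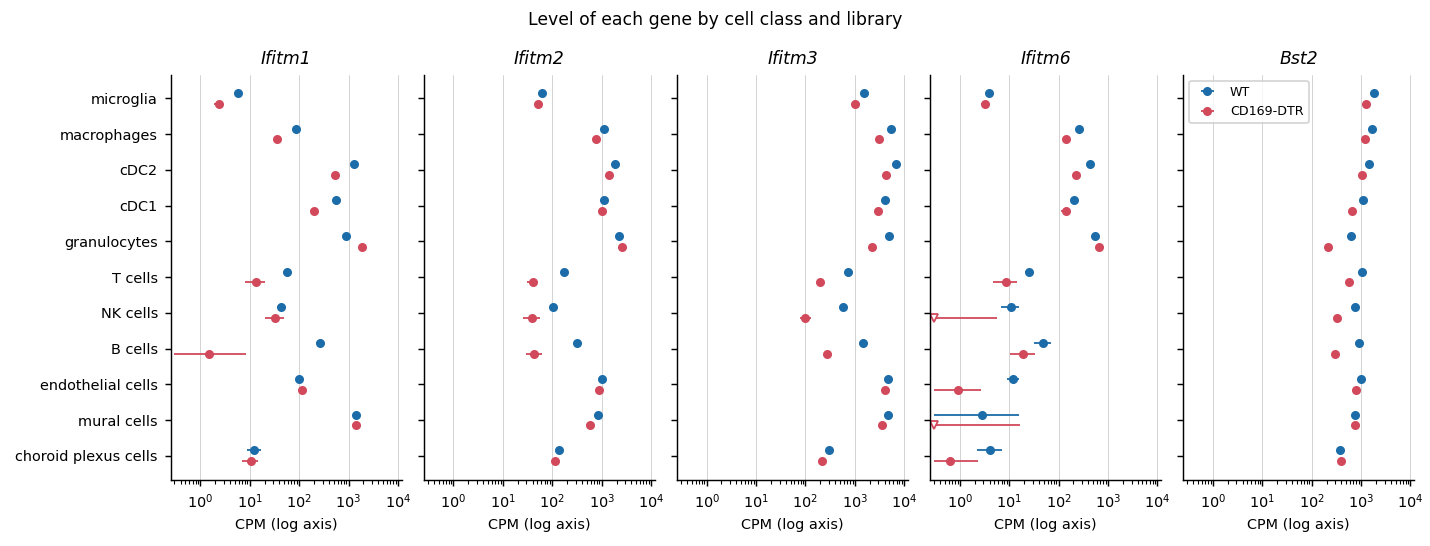
Level of each member in CPM on a log axis, in 11 cell classes, with WT in blue, CD169-DTR in red and bars for the 95% counting interval. Open triangles at the left edge mark classes with no UMI. Ifitm3 was high in cDC2, cDC1, macrophages, granulocytes and vascular cells, Ifitm2 and Ifitm6 led in granulocytes, and Bst2 varied least between classes.

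Among the 11 compared classes, the leading class of a member never stood far above the next one in WT. The leading class exceeded the next by 1.08-fold for Ifitm1, 1.16-fold for Ifitm2, 1.23-fold for Ifitm3, 1.22-fold for Ifitm6 and 1.09-fold for Bst2. Among these classes a lead of 2-fold or more was reached by 0 of the 5 members in WT. Of the 13604 genes considered, 24.3% reached it. In CD169-DTR 1 of 5 members reached it, against 25.9% of genes. This was Ifitm6, with granulocytes at 663 CPM over cDC2 at 228 CPM or 2.91-fold. These leads leave out pDC and basophils and mast cells, which had fewer than 20 cells in CD169-DTR. Bst2 in pDC was at 4945 CPM in WT and 5522 CPM in CD169-DTR, against 1799 and 1240 CPM in microglia. Ifitm1 in basophils and mast cells was at 2283 CPM in WT, against 1391 CPM in mural cells. Its CD169-DTR level there was 4000 CPM, against 1874 CPM in granulocytes. When each cell was weighted equally instead of by its UMIs, the next class in order overtook the leading one for Ifitm6 in WT and for Bst2 in both libraries.

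The profiles over 11 classes and 2 libraries, 22 points that share libraries and depths, gave Pearson correlations on log2(CPM + 1) as a description. Ifitm2 was close to Ifitm3 (0.87) and to Ifitm1 (0.85), whereas Ifitm1 and Bst2 were unrelated (0.08). The gene most like Ifitm3 was Cnih4 (0.93), followed by Ifih1 (0.92), which encodes the RNA sensor MDA5, and then Parp12 and Ube2l6 (0.90 each). Ube2l6 encodes the conjugating enzyme for the interferon-induced modifier ISG15. Bst2 was most like Phf11d (0.89) and Tor3a (0.86). Ifitm6 was most like Gpr141 and Alcam (0.92 each), and both Ifitm1 (0.88) and Ifitm2 (0.92) were most like Rell1.

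RNA free in the suspension sets a floor under these levels. Barcodes of 10 to 100 UMIs, which hold free RNA and few cells, contained Ifitm3 at 3531 CPM in WT and 1427 CPM in CD169-DTR, Bst2 at 1770 and 1269 CPM, Ifitm2 at 768 and 274 CPM, Ifitm1 at 254 and 55.2 CPM, and Ifitm6 at 158 and 36.8 CPM. All 5 were higher in the free RNA of WT. From microglial marker UMIs in lymphoid cells, a droplet was estimated to hold 204 free UMIs in WT and 131 in CD169-DTR. That would give 51.3% of WT cells and 17.1% of CD169-DTR cells an Ifitm3 UMI. T cells (median 6574 and 6655 UMIs) had one in 50.4% and 20.2% of cells, NK cells (5576.5 and 6567 UMIs) in 47.3% and 24.4%, and B cells (4552 and 4125 UMIs) in 40.8% and 18.5%. These shares were near or below the estimate, apart from NK cells of CD169-DTR, and are not read as expression. The summed UMIs were above it, since the free part was estimated at 344 of 3005 Ifitm3 UMIs in WT T cells and 237 of 1240 in WT NK cells. Bst2 differed, since free RNA would give 30.3% and 15.3% of cells a Bst2 UMI, whereas 92.5% and 76.1% of T cells and 77.6% and 53.5% of NK cells had one.

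Microglia were at the floor for Ifitm1 and Ifitm6 in WT. Their 203 Ifitm1 UMIs compare with 207 estimated from free RNA, and their 141 Ifitm6 UMIs with 129. In CD169-DTR microglia 102 Ifitm1 UMIs compare with 33.4, and 139 Ifitm6 UMIs with 22.3, of which 48 lay in 1 cell. For Ifitm2 the free part was estimated at 29.0% and 7.53% of microglial UMIs, for Ifitm3 at 5.31% and 2.01%, and for Bst2 at 2.27% and 1.43%. In macrophages the free part of Ifitm3 was 1.61% and 0.458%.

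Between the libraries, all 5 members were higher in WT macrophages. Ifitm3 was at 5464 CPM in WT and 3068 CPM in CD169-DTR, a log2 ratio of 0.83 (0.81 to 0.85). Bst2 was at 1655 and 1178 CPM, a log2 ratio of 0.49 (0.46 to 0.52), and Ifitm2 at 1096 and 776 CPM, 0.50 (0.46 to 0.54). Ifitm1 was at 85.0 and 35.4 CPM, 1.26 (1.10 to 1.44), and Ifitm6 at 259 and 144 CPM, 0.85 (0.77 to 0.94). With a log2 ratio of 0.5 as the size of interest, 3 of 5 members were past it, Ifitm1, Ifitm3 and Ifitm6, where 7.52% of the 9344 genes with at least 100 UMIs were higher by as much, and 0 were lower by 0.5, where 6.92% of genes were. The median gene was at −0.05, and the housekeeping genes ran from −0.43 (Gapdh) to 0.28 (Actb). Macrophages had a median of 7251 UMIs in WT and 11792.5 UMIs in CD169-DTR.

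All 5 members kept their direction in macrophages under the 12 alternatives run for each, and the sizes for Ifitm1, Ifitm2 and Ifitm6 moved by over 1.5 times. In macrophages of 5000 to 10000 UMIs the log2 ratio was 0.72 for Ifitm3, 0.62 for Bst2, 0.98 for Ifitm1, 0.28 for Ifitm2 and 0.24 for Ifitm6. With the 3 macrophage clusters given equal makeup in both libraries it was 0.60 for Ifitm3, 0.78 for Ifitm1, 0.25 for Ifitm2 and 0.65 for Ifitm6. Without cluster 15, which made up 8.41% of WT and 19.8% of CD169-DTR macrophages, Ifitm6 came to 1.78.

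In microglia Ifitm3 and Bst2 were higher in WT. Ifitm3 was at 1536 CPM (1523 to 1548) in WT and 992 CPM (983 to 1001) in CD169-DTR, a log2 ratio of 0.63 (0.61 to 0.65). Bst2 was at 1799 and 1240 CPM, a log2 ratio of 0.54 (0.52 to 0.55). Among all genes Ifitm3 stood at the 98.5th and Bst2 at the 98.0th percentile of the microglial ratios. Ifitm1 also counted among the 3 of 5 members past 0.5, at 5.74 and 2.35 CPM and a log2 ratio of 1.29 (0.94 to 1.64), but its WT level was that of free RNA. The background was 2.25% of 11421 genes, 0 members were lower by 0.5 where 1.95% of genes were, and the median gene was at −0.04. Median depth was close, at 7213 and 7416.5 UMIs. Ifitm2 had 61.1 and 50.8 CPM, 0.27 (0.18 to 0.35), and Ifitm6 had 3.99 and 3.21 CPM, 0.31 (−0.03 to 0.66). Granulocyte markers summed to 205 CPM in WT microglia and 444 CPM in CD169-DTR microglia, and macrophage markers to 396 and 253 CPM. The part of these markers in the ratios was not tested.

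In cDC2 and cDC1 Ifitm1 had the largest ratio of the members. It was at 1286 CPM in WT cDC2 and 539 CPM in CD169-DTR cDC2, a log2 ratio of 1.26 (1.18 to 1.33). In cDC1 it was at 563 and 200 CPM, 1.49 (1.24 to 1.76). The CD169-DTR level in cDC1 rests on 32 cells and 134 UMIs, of which 53 lay in 1 cell. After thinning, 26.3% of WT and 28.1% of CD169-DTR cDC1 had an Ifitm1 UMI, so the share of cells was not lower in CD169-DTR. In cDC2 Ifitm6 was at 439 and 228 CPM (0.95), Ifitm3 at 6706 and 4299 CPM (0.64), Bst2 at 1476 and 1060 CPM (0.48) and Ifitm2 at 1896 and 1418 CPM (0.42). Past 0.5 were 3 of 5 members in cDC2, where 8.95% of genes were, and 3 of 5 in cDC1, where 8.63% were. Past −0.5 were 0 members in either class, beside 7.25% of genes in cDC2 and 6.50% in cDC1. In pDC, with 11 cells in CD169-DTR, Bst2 had a ratio of −0.16 (−0.27 to −0.05), while Ifitm3 was at 1075 and 125 CPM (3.101), on 17 UMIs in CD169-DTR. Migratory dendritic cells, 146 in WT and 15 in CD169-DTR, had ratios near 0 for Bst2, −0.02 (−0.21 to 0.18), and Ifitm3, 0.13 (0.01 to 0.25). Ifitm2 was at 0.63 and Ifitm1 at 0.92 there.

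Granulocytes combined both directions. Ifitm3 was at 4910 CPM in WT and 2223 CPM in CD169-DTR, a log2 ratio of 1.14 (1.06 to 1.22), and Bst2 at 621 and 212 CPM, 1.55 (1.30 to 1.80). Ifitm1, in contrast, was at 892 CPM in WT and 1874 CPM in CD169-DTR, −1.07 (−1.21 to −0.93), and Ifitm2 at 2202 and 2562 CPM, −0.22 (−0.31 to −0.12). Higher in WT by 0.5 were 2 of 5 members and lower 1 of 5, where 14.6% of genes were past each side. Genes of immature granulocytes (Ngp, Camp, Ltf and Lcn2) summed to 5759 CPM in WT and 15229 CPM in CD169-DTR. Among cells with fewer than 3 UMIs of these genes after thinning, 147 in WT and 137 in CD169-DTR, Ifitm1 was at −1.00, Ifitm2 at −0.18, Ifitm3 at 1.09 and Bst2 at 1.77. Of the counts made, Ifitm6 was lower in WT only when all UMIs were summed. Summed over all UMIs it was at −0.30 (−0.50 to −0.11), and over all granulocytes thinned to 2000 UMIs at 0.27 (−0.08 to 0.63), with 418 CPM in WT and 346 CPM in CD169-DTR. Among thinned cells it was 0.86 (0.28 to 1.46) in those with fewer than 3 UMIs of the immature genes and 0.92 (0.44 to 1.40) in the 18 and 48 cells with 3 or more. The cells with 3 or more made up 10.9% of thinned granulocytes in WT and 25.9% in CD169-DTR. They had Ifitm6 at 1778 and 938 CPM, against 252 and 139 CPM in cells with fewer than 3. The part of this makeup in the summed ratio was not tested.

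Lymphoid cells gave high Ifitm3 ratios, on low levels in T and NK cells. In T cells Ifitm3 was at 719.5 and 193 CPM, a log2 ratio of 1.90 (1.73 to 2.07), in NK cells at 579.5 and 99.4 CPM, 2.54 (2.18 to 2.93), and in B cells at 1462 and 273 CPM, 2.42. As given above, the shares of T and NK cells with Ifitm3 were near those estimated for free RNA, apart from NK cells of CD169-DTR. Free RNA itself held more Ifitm3 in WT. The 10% of T cells with most microglial and macrophage marker UMIs held 50.1% of T-cell Ifitm3 UMIs in WT and 77.4% in CD169-DTR. Without those cells Ifitm3 was at 456 and 53.4 CPM in T cells, a log2 ratio of 3.095 (2.75 to 3.46). The same step gave 2.53 in NK cells and 5.14 in B cells, the latter on 19 UMIs in CD169-DTR. Bst2 in T cells was at 1064 and 560 CPM, 0.93 (0.82 to 1.03), and without those cells at 971 and 405 CPM, 1.26. In NK cells it was at 746 and 318 CPM, 1.23 (1.02 to 1.45), and without those cells at 593 and 277 CPM, 1.10. The ratio of Bst2 to Ifitm3 UMIs was 0.501 in the free RNA of WT and 0.889 in that of CD169-DTR, against 2.13 and 7.59 in the T cells kept. Members past 0.5 were 5 of 5 in T cells (14.0% of genes), 3 of 4 in NK cells (9.58%) and 4 of 4 in B cells (13.5%), and 0 passed −0.5, beside 3.91%, 5.29% and 10.3% of genes. The Ifitm1 values rest on single cells, since 128 of 152 Ifitm1 UMIs in WT B cells and 108 of 237 in WT T cells lay in 1 cell each.

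Endothelial, mural and choroid plexus cells had the 3 Bst2 ratios nearest to 0 of the 11 classes. In endothelial cells Ifitm3 was at 4790 and 4023 CPM, a log2 ratio of 0.25 (0.22 to 0.28), and Bst2 at 986 and 802 CPM, 0.30, so that 0 of 4 members passed 0.5, against 3.07% of genes higher and 2.20% lower. Mural cells had Ifitm3 at 0.40 (0.28 to 0.53) and Bst2 at 0.03 (−0.25 to 0.32), and 1 of 4 members, Ifitm2, passed 0.5 where 14.3% of genes did and 8.80% were lower by as much. Choroid plexus cells had Bst2 at −0.05 (−0.16 to 0.07) and Ifitm3 at 0.52 (0.37 to 0.66), so 1 of 3 members passed 0.5, against 1.97% of genes higher and 8.72% lower. Over all 11 classes Ifitm3 was higher in WT in 11, with every interval above 0 and a range of 0.25 to 2.54. The 3 highest of these ratios were those of T, NK and B cells, with the levels and shares given above. Bst2 was higher in WT in 10 of 11 classes, with 9 intervals above 0. All classes come from the same 2 libraries, so these counts are not independent repeats. The share of all genes with such counts was not computed.

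**Figure D2:**
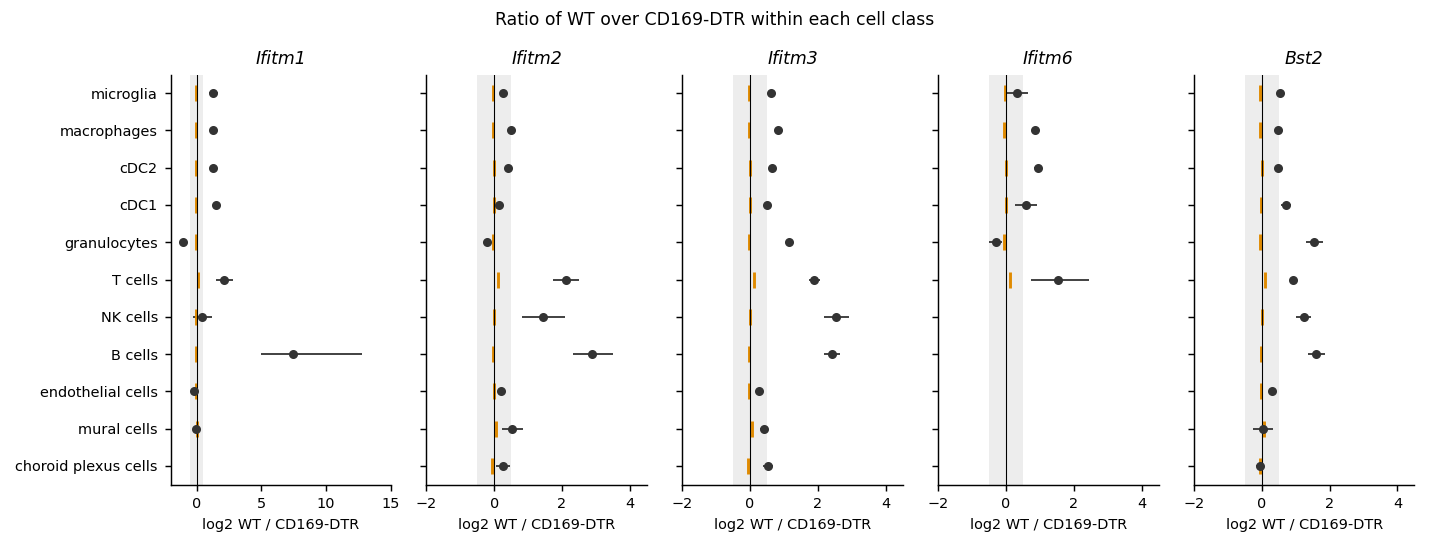
Log2 ratio of WT over CD169-DTR for each member and class, with bars for the 95% counting interval, an orange tick for the median of all genes of the class and a grey band from −0.5 to 0.5. Genes with under 100 UMIs in a class are left out, and the Ifitm1 axis is wider than the others. Ifitm3 lies right of 0 in all 11 classes, and Ifitm1 in granulocytes lies left of the band at −1.07.

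Within microglia the level of Ifitm3 and Bst2 varied more between clusters than between libraries. Of 9 clusters with microglial markers, 1 of them (cluster 2, led by C4b, Lpl and Cst7) was left unnamed because a marker of another class stood among its leading genes. Ifitm3 was lowest in cluster 0, led by the homeostatic genes P2ry12 and Gpr34, at 401 CPM in WT and 257 CPM in CD169-DTR. It was highest in cluster 6, led by Cxcl13, Ifnb1 and Cxcl10, at 2934 and 2246 CPM, a span of 7.31-fold and 8.72-fold. Bst2 ran from 659 and 541 CPM in cluster 0 to 3227 and 2614 CPM in cluster 6, a span of 4.90-fold and 4.83-fold. Both genes were higher in WT in 9 of 9 clusters, Ifitm3 by 0.39 to 0.64 and Bst2 by 0.28 to 0.59 on the log2 scale. All clusters come from the same 2 libraries, so they are not independent repeats. The share of all genes higher in WT in every cluster was not computed. The clusters followed the summed level of 23 other interferon-induced antiviral effectors, which rose from 1525 CPM in cluster 0 to 11428 CPM in cluster 6 in WT. Over the 9 clusters, which share a library, Spearman's rho with that sum was 0.967 for Ifitm3 and 0.883 for Bst2 in WT. It was 0.933 and 0.900 in CD169-DTR. Only the members were left out of the clustering genes, so the effectors could themselves help to form these clusters. The share of all genes with as high a rho was not computed, and rho is given as a description. With clusters given equal makeup in both libraries, the microglial log2 ratio was 0.49 for Ifitm3 and 0.39 for Bst2.

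Macrophage clusters separated the members from each other. Cluster 3 was led by Gpnmb and Ms4a7, cluster 4 by Clec4e, F10 and Ly6c2, and cluster 15 by Ear2, Treml4 and Ace, the last of these genes of patrolling monocytes. Ifitm3 was at 2983 and 1657 CPM in cluster 3, 7599 and 5177 CPM in cluster 4, and 5455 and 4200 CPM in cluster 15, with log2 ratios of 0.85, 0.55 and 0.38. Ifitm6 had the reverse order of Bst2. It rose from 24.3 and 3.48 CPM in cluster 3 through 381 and 172 CPM in cluster 4 to 714 and 692 CPM in cluster 15, a span of 29.4-fold in WT and 199-fold in CD169-DTR. Bst2 was at 1922 and 1338 CPM in cluster 3, 1656 and 1292 CPM in cluster 4, and 349 and 197 CPM in cluster 15. Ifitm2 differed little between libraries in clusters 3 and 15, at 286 and 298 CPM and at 1785 and 1745 CPM, and was higher in WT in cluster 4 at 1671 and 1248 CPM. Ifitm1 was highest in cluster 4 at 154 and 80.3 CPM. The clusters differed in depth between libraries, with medians of 4719 and 16196 UMIs in cluster 3, 8963 and 11722.5 in cluster 4, and 8610 and 8211.5 in cluster 15.

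**Figure D3:**
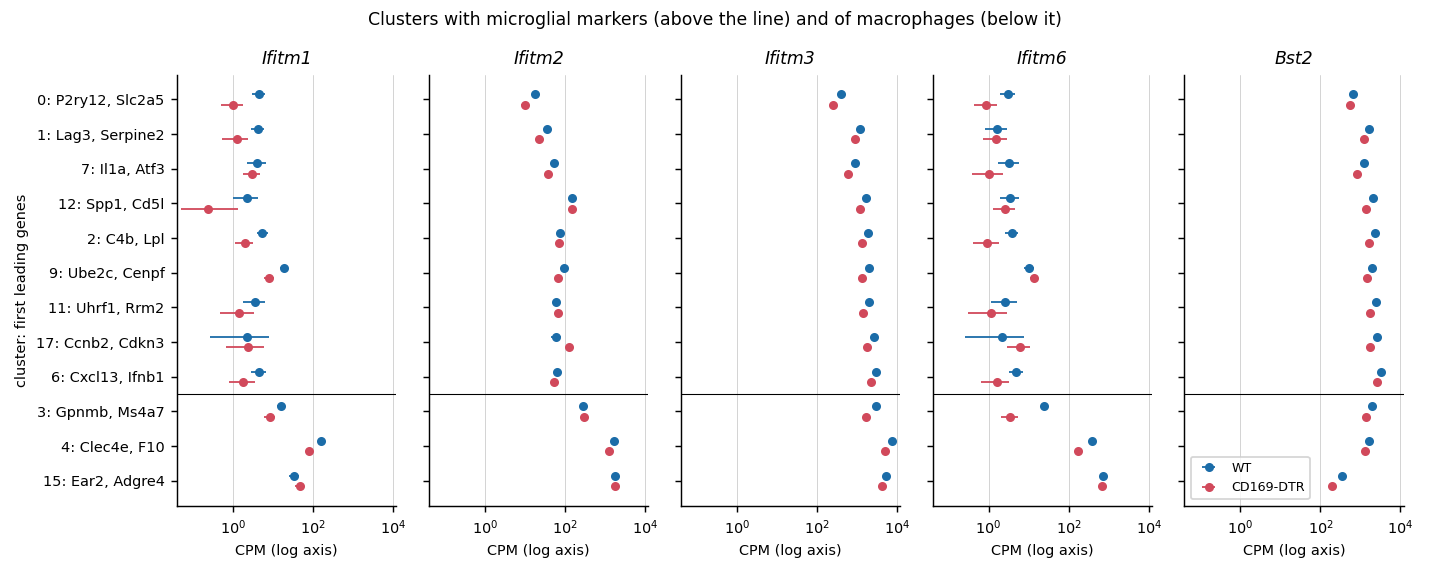
Level of each member in CPM in 9 clusters with microglial markers, above the line, and 3 macrophage clusters, below it, with WT in blue, CD169-DTR in red and bars for the 95% counting interval. Among the microglial clusters Ifitm3 and Bst2 are lowest in cluster 0 and highest in cluster 6. Ifitm6 is highest and Bst2 lowest in cluster 15.

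Because the toxin receptor is placed under Siglec1, macrophages with and without a Siglec1 UMI were also compared within each library, after thinning to 2000 UMIs. In WT, 515 thinned macrophages had had a Siglec1 UMI before thinning and 1640 had not. Bst2 was at 2192 CPM in the former and 1657 CPM in the latter, a log2 ratio of 0.40 (0.33 to 0.48). Ifitm6 was at 150 and 269 CPM, −0.84 (−1.09 to −0.59), and Ifitm2 at 732 and 1078 CPM, −0.56 (−0.67 to −0.44). Ifitm3 was at 5428 and 5500 CPM, −0.02 (−0.06 to 0.02), and Ifitm1 at 100 and 82.3 CPM, 0.28 (−0.06 to 0.61). In WT 0 of 5 members were higher by 0.5, where 3.47% of 4817 genes were, and 2 of 5 were lower by as much, where 6.54% were. In the 95 and 620 macrophages of CD169-DTR Bst2 was at 1737 and 1089 CPM, 0.67 (0.50 to 0.85), and Ifitm6 at 57.9 and 201 CPM, −1.79 (−2.82 to −0.93), beside 8.28% of genes higher and 13.2% lower.

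Part of these differences lay between macrophage clusters. Cluster 15 held 0.760% of WT cells with a Siglec1 UMI and 10.7% of those without. Within WT cluster 4 Bst2 remained at 0.40 (0.29 to 0.51), Ifitm2 at −0.39, Ifitm6 at −0.35 (−0.63 to −0.08) and Ifitm3 at 0.07. Within WT cluster 3 Bst2 was at 0.15 (0.06 to 0.25), Ifitm2 at 0.08 and Ifitm6 at 0.10. The Siglec1-positive macrophages had median depths of 7486 against 7162.5 UMIs in WT and 16167 against 11376 UMIs in CD169-DTR. They also held more microglial marker UMIs, 2078 against 1446 CPM in WT and 2474 against 2077 CPM in CD169-DTR. The part of depth and of these markers was not tested.

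**Figure D4:**
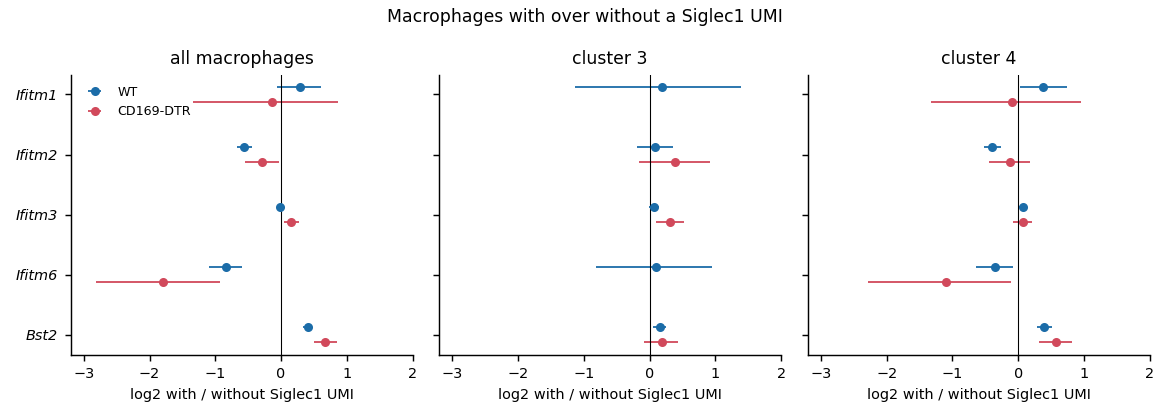
Log2 ratio of each member in macrophages with a Siglec1 UMI over those without, after thinning to 2000 UMIs, over all macrophages and within clusters 3 and 4, with WT in blue, CD169-DTR in red and bars for the 95% counting interval. Points with fewer than 5 UMIs on a side are left out. Bst2 lies right of 0 and Ifitm6 left of 0 over all macrophages of both libraries.

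Members were also detected together or apart within single cells thinned to 2000 UMIs. Of WT macrophages with an Ifitm2 UMI, 38.0% had an Ifitm6 UMI, against 7.05% of those without. In CD169-DTR these shares were 31.5% and 2.76%. Bst2 went the other way, found in 73.3% of WT macrophages with Ifitm6 and 90.8% of those without, and in 45.1% and 79.9% in CD169-DTR. In microglia Ifitm3 accompanied Bst2, with an Ifitm3 UMI in 77.1% of WT cells with Bst2 and 32.1% of those without, and in 66.2% and 25.9% in CD169-DTR. In WT cDC2 Ifitm1 was found in 59.8% of cells with Ifitm6 and 36.2% of those without. Cells of 1 library are not replicates, so these shares describe the libraries.

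The other genes of the interferon pathway gave the setting of the members. Of 23 other interferon-induced antiviral effectors in the files, 20 were higher by 0.5 or more in WT macrophages, with a median log2 ratio of 1.13, above that of 4 of the members, where the median gene was at −0.05. Ifit1bl1 was at 129 and 30.5 CPM (2.07), and Oas1g at 19.3 and 21.1 CPM (−0.12). In microglia 13 of 23 effectors were higher by 0.5, with a median of 0.56, led by Oas3, an RNA-activated synthetase, at 35.7 and 16.3 CPM (1.13). In granulocytes 18 of 19 with enough UMIs were higher, with a median of 1.21, so that Ifitm1 and Ifitm2 ran against the list there. In cDC2 18 of 23 were higher (median 0.91), in T cells 18 of 22 (1.00) and in NK cells 17 of 19 (1.47). Of all genes, 7.52% were higher in WT by 0.5 in macrophages, 2.25% in microglia and 14.6% in granulocytes. The share was 8.95% in cDC2, 14.0% in T cells and 9.58% in NK cells. Of 18 effectors with a promoter entry, 12 held the ISRE core shown above for Ifitm2, Ifitm3 and Bst2.

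Receptors and transducers moved less. In macrophages 5 of 12 were higher in WT by 0.5, beside 7.52% of all genes, with a median of 0.35. Irf7, the transcription factor that amplifies interferon production, was at 1579 and 659 CPM (1.26), and Ifngr1, a chain of the IFN-γ receptor, at 192 and 251 CPM (−0.39). In microglia 2 of 12 were past 0.5, Irf7 (0.65) and Stat2 (0.60), beside 2.25% of all genes. Genes that modify IFITM3 or BST2 protein include the palmitoyltransferase Zdhhc20 and the IFITM3 partner Zmpste24. Of 8 measured in macrophages 0 were past 0.5 in either direction, with a median of 0.02, beside 7.52% of genes higher and 6.92% lower. In microglia 0 of 8 were, with a median of −0.05, beside 2.25% and 1.95% of genes. Other Ifitm genes were sparse. Ifitm5 had 43 and 28 UMIs over all cells kept and Ifitm7 had 41 and 21. Ifitm10 was at 15.5 and 20.9 CPM in microglia (−0.43).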

How the data were processed

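Cells were prepared on the 10x Genomics droplet platform. The authors deposited UMI counts per gene and barcode, unnormalized and unfiltered, made with Cell Ranger 3.1.0 per the file headers, on mm10 per the submitters' processing notes. Cells were barcodes of 1000 or more UMIs, no more than 17% of them mitochondrial, 10107 in WT (94046611 of 101808996 UMIs) and 7604 in CD169-DTR (78008647 of 84065489 UMIs). Clusters were made with Seurat 5.3.0 (integration, resolution 1) without the members and named from marker lists under thresholds set after clustering. Scrublet in scanpy 1.11.5 marked 2.56% of WT and 0% of CD169-DTR cells and had not worked, so no doublets were removed. Counts were summed per class and library. With 1 library per group no test was made. Intervals are exact Poisson (CPM), exact conditional (ratios) and Clopper-Pearson (shares). A ratio needed 100 UMIs, and a size of 0.5 (log2) was counted. Members were named in full, and other genes by list extremes and likeness. Members and lists were chosen with earlier results of these data known. SciPy 1.17.1 was used, and scripts were checked on simulated counts.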

Additional observations from a re-analysis of the deposited data

Results flagged for a closer look

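For 3 members the ratio of WT over CD169-DTR, summed over all UMIs, pointed opposite in granulocytes to that in macrophages. Ifitm1 had a log2 ratio of −1.07 in granulocytes and 1.26 in macrophages. Ifitm2 had −0.22 in granulocytes and 0.50 in macrophages. Ifitm6 had −0.30 in granulocytes and 0.85 in macrophages. With 1 library per group the difference between the classes was not tested. After thinning to 2000 UMIs Ifitm6 in granulocytes was at 0.27, and Ifitm1 at −1.08. Ifitm1 was at −1.00 in thinned cells with fewer than 3 UMIs of the immature granulocyte genes and −0.95 in the others, where Ifitm6 was at 0.86 and 0.92.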

How the results depend on the processing

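No paired analysis was possible because each group is 1 library, and for the same reason no library could be left out. In macrophages, where the log2 ratios of WT over CD169-DTR were 1.26 (Ifitm1), 0.50 (Ifitm2), 0.83 (Ifitm3), 0.85 (Ifitm6) and 0.49 (Bst2), weighting cells equally gave 0.85, 0.13, 0.61, 0.25 and 0.65. Equal makeup of clusters gave 0.78 for Ifitm1, 0.25 for Ifitm2, 0.60 for Ifitm3 and 0.65 for Ifitm6. Scaling by the median ratio of all genes gave 0.55 for Ifitm2, 0.88 for Ifitm3 and 0.54 for Bst2. Removing the 5% of cells with the highest doublet score gave 0.86 for Ifitm3. The doublet scoring had not worked, so values under this setting, here and below, do not measure the effect of doublets. Alternatives chosen after seeing the data were cells of 5000 to 10000 UMIs (0.98, 0.28, 0.72, 0.24 and 0.62 in the order above), leaving out cluster 15 (Ifitm2 0.70, Ifitm3 0.91, Ifitm6 1.78, Bst2 0.43), thinned granulocytes, where Ifitm6 turned from −0.30 to 0.27 over all of them and to 0.86 and 0.92 in those with fewer than 3 and with 3 or more UMIs of the immature genes, and lymphoid cells without those richest in myeloid marker UMIs. In microglia Ifitm3, at 0.63, came to 0.61 with high doublet scores removed, with the libraries merged without integration, at resolution 0.5 and with the members among the clustering genes, to 0.76 in cells of 5000 to 10000 UMIs, 0.67 with median scaling, 0.68 with equal weights, 0.59 with free RNA subtracted and 0.49 with equal makeup. Bst2 in microglia, at 0.54, came to 0.58 in cells of 5000 to 10000 UMIs and with median scaling, and to 0.39 with equal makeup. The cause of these shifts was not tested.

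The lead of the highest of the 11 compared classes over the next was less stable. In WT, with the log2 lead 0.11 for Ifitm1, 0.22 for Ifitm2, 0.30 for Ifitm3, 0.29 for Ifitm6 and 0.12 for Bst2, equal weights gave 0.66 for Ifitm1, 0.49 for Ifitm2, −0.18 for Ifitm6 and −0.14 for Bst2. Removing high doublet scores gave 0.45 for Ifitm1, 0.33 for Ifitm2 and 0.56 for Ifitm6. Merging gave −0.080 for Ifitm1, 0.13 for Ifitm2, 0.34 for Ifitm3 and 0.20 for Bst2. Resolution 0.5 gave 0.17 for Ifitm3 and 0.18 for Bst2, keeping the members among the clustering genes gave 0.31 and 0.19, and a limit of 10% mitochondrial UMIs gave 0.094 for Bst2. In CD169-DTR, with leads of 0.85 for Ifitm2, 0.10 for Ifitm3, 1.54 for Ifitm6 and 0.07 for Bst2, equal weights gave 1.12, 0.19, 0.63 and −0.035, and merging 0.53, 0.30, 1.10 and 0.13. Removing high doublet scores gave 0.94 for Ifitm2 and 1.70 for Ifitm6. Resolution 0.5 gave 0.73 for Ifitm2, 1.34 for Ifitm6 and 0.12 for Bst2, the members among the clustering genes gave 0.15 for Bst2, and the mitochondrial limit 0.038 for Bst2. Thinning to 4500 UMIs moved Ifitm3 in the Siglec1 comparison of WT from −0.02 to −0.073. Of all alternatives, 120 gave values within the counting interval of the value reported, 107 moved past it and 6 reversed. Shares of cells with a UMI were higher under all 40 alternatives for depth. The shares are set by depth. Some of the ratios given rest on fewer UMIs than cells, among them Ifitm1 in macrophages. It had 1565 UMIs in 2258 WT cells and 343 UMIs in 728 CD169-DTR cells.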
